A study of Mus musculus with 16 samples.

Results

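NF-kB is the transcription factor that inflammatory signals switch on, and the genes described here are 10 of its known targets: Il1b, Tnf and Il6 (cytokines), Ptgs2 (a prostaglandin enzyme), Nfkbia, Nfkbiz and Tnfaip3 (regulators of NF-kB itself), Cd83 and Cd86 (surface proteins of antigen-presenting cells) and Il1rn (an antagonist of IL-1). They were chosen by name with earlier results of these data known, and are 10 of the 32285 genes counted in the files. They were followed in the myeloid and stromal cells of bone marrow stromal cell cultures. The cultures came from 12-week-old male C57BL/6J littermates of 4 genotypes and were kept in osteogenic medium with 10 mM bGP for 21 days. Every genotype carried the floxed allele Fgf23 fl/fl. WT cells were Dmp1+/+ without Cre, Fgf23cKO cells carried Dmp1-cre, Dmp1KO cells were Dmp1-/- without Cre, and Dmp1KO/Fgf23cKO cells were Dmp1-/- with Dmp1-cre. The Dmp1 promoter drives this Cre in mature osteoblasts and osteocytes, so Fgf23 was deleted in those cells, whereas the Dmp1 knockout was global in the Dmp1-/- mice. For each genotype, 3 individual cultures were given an oligonucleotide tag each, sorted for viable cells, pooled and run in 1 droplet reaction. A difference between reactions therefore cannot be told apart from one between genotypes. The counts of the first Dmp1KO culture were not analysed here, which left 3, 3, 2 and 3 tagged cultures of WT, Fgf23cKO, Dmp1KO and Dmp1KO/Fgf23cKO. The sample numbered 4 of each genotype was read as the untagged cells of the same pool, from the study's methods. It entered the clustering and none of the tests reported here, apart from an alternative fit that included it and a check of single samples that stand apart from their group.

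NF-kB dimers of the Rel family are held in the cytoplasm by IkB proteins until an IkB kinase, activated from receptors for TNF, IL-1 or microbial products, marks the IkB for destruction. The freed dimers bind kB sites and switch on cytokines, enzymes and surface proteins, along with their own brakes, which makes the response short. In bone, the myeloid cells that answer these signals are macrophages and osteoclast precursors, while stromal cells and osteoblasts are known to respond to IL-1 and TNF with prostaglandins and IL-6.

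Promoters are shown for members whose window held a match to the kB consensus, because NF-kB acts through sites of this kind. A window ran from 250 bases before to 50 bases after a RefSeq transcription start (GRCm38.p6), and both strands were searched for the 10-base kB consensus and for the AP-1 motif TGANTCA. In the sequences, given 5′ to 3′ on the gene's strand, capitals mark each kB match. The promoter table held 7 of the 10 members, all but Nfkbiz, Cd83 and Cd86, and 3 of them had a kB match: Il6, Nfkbia and Tnfaip3. These 7 members had 10 windows, of which 3 held a kB match and 3 an AP-1 match. Over all promoters, 2779 of 32851 windows (8.46%) held a kB match and 2565 (7.81%) held an AP-1 match. The Nfkbia window lies at chr12:55492598-55492897 on the minus strand with its kB match at base -29, and the Tnfaip3 window at chr10:19015361-19015660 on the minus strand with kB matches at bases -125 and -12. Of Il6 (chr5:30012864-30013163, plus strand), the stretch around the match at base -44 is given.
Nfkbia: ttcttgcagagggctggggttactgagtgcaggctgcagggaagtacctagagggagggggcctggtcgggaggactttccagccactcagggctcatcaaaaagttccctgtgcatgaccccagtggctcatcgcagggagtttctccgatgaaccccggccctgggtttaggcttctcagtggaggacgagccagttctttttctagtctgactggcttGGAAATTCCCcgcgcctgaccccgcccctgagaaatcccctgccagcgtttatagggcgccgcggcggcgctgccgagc
Tnfaip3: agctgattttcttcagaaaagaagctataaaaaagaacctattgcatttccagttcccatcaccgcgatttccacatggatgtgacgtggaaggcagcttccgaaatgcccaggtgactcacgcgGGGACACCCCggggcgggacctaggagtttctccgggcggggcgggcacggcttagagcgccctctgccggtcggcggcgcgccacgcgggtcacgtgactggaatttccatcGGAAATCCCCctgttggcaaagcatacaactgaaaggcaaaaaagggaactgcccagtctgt
Il6: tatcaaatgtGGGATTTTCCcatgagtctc
An AP-1 match stood at base -249 of Il6, base -136 of Tnfaip3 and base -141 of Il1rn, so 3 members held one. The matches describe letters in these windows and nothing was drawn from a window without one.

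The 15 samples held 17793 cells in 21 clusters, formed with the 10 members left out of the variable genes. By marker genes, 13768 cells belonged to myeloid clusters and 1538 to stromal clusters. In tagged cultures, 68.8 to 93.1% of cells were myeloid and 2.73 to 13.7% were stromal, which is 326 to 2631 myeloid and 41 to 122 stromal cells per culture. Depth differed with genotype: the median myeloid cell held 7534 to 7996 UMIs (unique molecular identifiers, a count of captured transcript ends) in WT, 35640 to 40040 in Fgf23cKO, 21172 to 23138 in Dmp1KO and 35779 to 37092 in Dmp1KO/Fgf23cKO cultures. Levels were therefore compared as UMIs scaled to the total of the class (CPM, counts per 1000000) and shares of cells at an equal 2000 UMIs per cell. The edgeR fold changes also used TMM scaling factors, which the printed CPM do not carry. A fold change can therefore differ from the ratio of the levels. Statements on levels lying apart or overlapping refer to the printed CPM. Of the targeted genes, Dmp1 was at 27.3 to 242 CPM over all cells in the WT samples, 7.55 to 75.5 CPM in Fgf23cKO, 0 to 0.139 CPM in Dmp1KO and 1.32 to 3.76 CPM in Dmp1KO/Fgf23cKO samples. The Dmp1-/- genotypes thus differed, with 5 Dmp1 UMIs in Dmp1KO and 175 in Dmp1KO/Fgf23cKO samples, and the source of these UMIs was not tested. Fgf23 gave 9, 10, 2 and 1 UMIs in WT, Fgf23cKO, Dmp1KO and Dmp1KO/Fgf23cKO, too few to check its deletion. Across samples, 35 cell barcodes occurred more than once, and 0 of them within a genotype.

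In myeloid cells, most members were highest in Dmp1KO/Fgf23cKO cultures, and Tnf was lowest in Dmp1KO cultures. Of the 9 members tested, 7 were higher and 1 was lower in Dmp1KO/Fgf23cKO than in WT cells, and 6 were higher and 0 were lower in Dmp1KO/Fgf23cKO than in Dmp1KO cells (edgeR, adjusted p under 0.1). Dmp1KO against WT gave 5 higher and 2 lower, and Fgf23cKO against WT gave 7 higher and 2 lower. These counts stand on a background in which most genes differed: 69.8% of the 13752 genes tested in Dmp1KO against WT, 50.7% in Fgf23cKO against WT, 59.7% in Dmp1KO/Fgf23cKO against WT and 67.5% in Dmp1KO/Fgf23cKO against Dmp1KO. Separation of cultures was common too: in CPM with TMM factors, the genotypes of these comparisons did not overlap in 75.7%, 50%, 61.2% and 76.7% of genes. This held for 7, 6, 9 and 6 of the 9 members, and it is the background for cultures said to lie apart. The median log2 fold change of the members was 0.42, 0.67, 1.44 and 1.10 in these comparisons, beside 0.00, 0.00, 0.00 and -0.05 over all genes tested. The members were chosen with earlier results of these data known, and 8 of them were among the 3000 variable genes. All genes are therefore not a matched background for them. The study's figure legends give as many mice per genotype as tagged cultures were made, but the sample titles tie no culture to a mouse. The p values measure the spread between these cultures, and the comparisons share the WT or the Dmp1KO cultures.

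**Figure D1:**
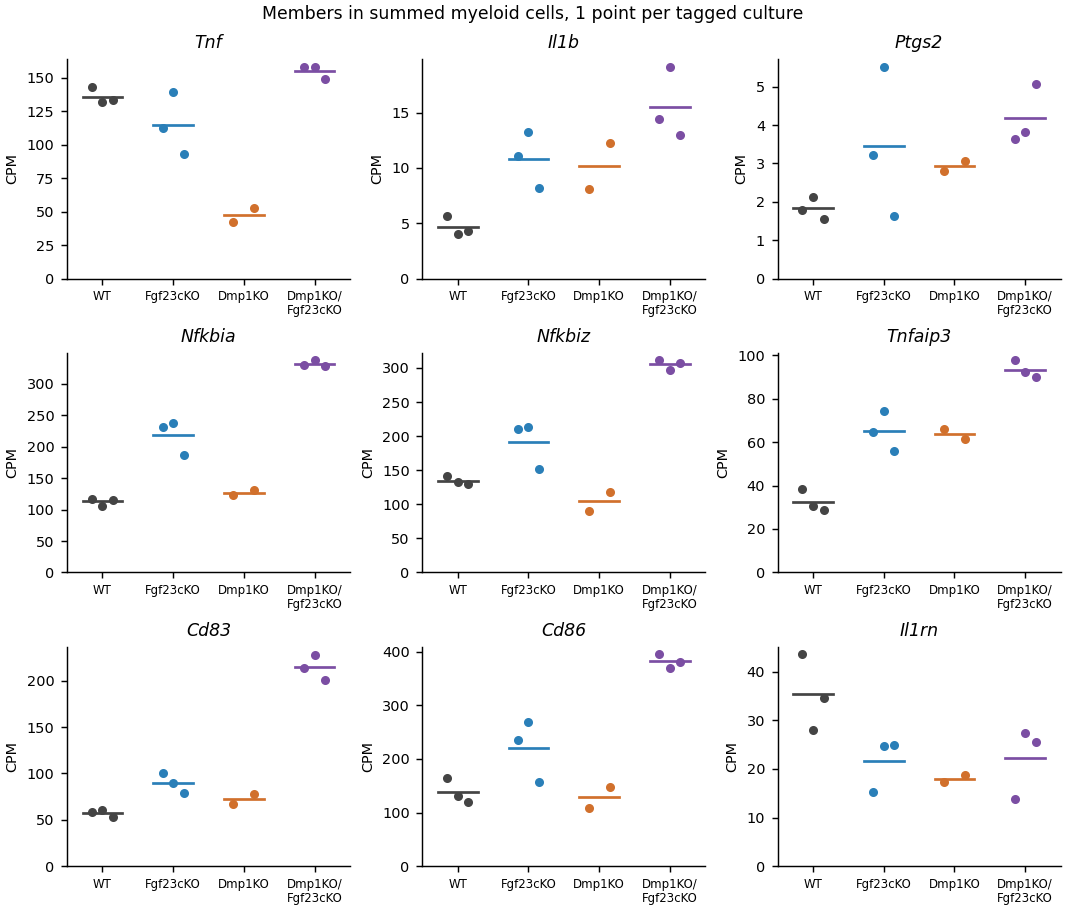
Level of 9 members in the summed myeloid cells of each tagged culture (y axis, CPM, linear and starting at 0) by genotype (x axis); each point is 1 culture and the line is the mean. Nfkbia, Nfkbiz, Cd83 and Cd86 of the Dmp1KO/Fgf23cKO cultures lie above every other culture, and Tnf of both Dmp1KO cultures (41.9 and 52.6 CPM) lies below every other culture.

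Among the cytokines, Tnf, which encodes the inflammatory cytokine TNF (chr17:35199381-35202007, minus strand), stood at 143, 132 and 133 CPM in the WT cultures, 113, 139.6 and 92.8 CPM in Fgf23cKO, 41.9 and 52.6 CPM in Dmp1KO and 158, 158 and 149 CPM in Dmp1KO/Fgf23cKO. Both Dmp1KO cultures lay below all others, while the Fgf23cKO values reached into the WT range. Tnf fell in Dmp1KO compared with WT (log2 fold change -1.27, SE 0.13, adjusted p = 7.97e-07) and was higher in Dmp1KO/Fgf23cKO than in Dmp1KO (1.43, SE 0.12, adjusted p = 3.11e-07). Dmp1KO/Fgf23cKO compared with WT gave 0.16 (SE 0.11, adjusted p = 0.241), but it passed without the filter on low counts (0.20, adjusted p = 0.0043). The fall in Fgf23cKO compared with WT was small (-0.25, SE 0.11, adjusted p = 0.0802) and depended on single cultures: it ran from -0.41 without Fgf23cKO replicate 2 to -0.13 without Fgf23cKO replicate 3, and missed the threshold without any of 5 cultures (Fgf23cKO replicates 1 and 3 and each WT culture). At 2000 UMIs, 20.4 to 22.3% of WT, 8.33 to 10.4% of Dmp1KO and 22.4 to 23.9% of Dmp1KO/Fgf23cKO myeloid cells held a Tnf UMI.

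Il1b, the gene of the cytokine IL-1 beta (chr2:129364570-129371139, minus strand), stood at 5.65, 4.07 and 4.31 CPM in WT, 11.1, 13.2 and 8.15 CPM in Fgf23cKO, 8.13 and 12.3 CPM in Dmp1KO and 14.4, 19.1 and 12.99 CPM in Dmp1KO/Fgf23cKO myeloid cells. The 3 WT cultures lay below all others, and the Fgf23cKO and Dmp1KO cultures overlapped. Il1b rose in Dmp1KO (1.41, SE 0.24, adjusted p = 0.000156), Fgf23cKO (1.23, SE 0.25, adjusted p = 0.00139) and Dmp1KO/Fgf23cKO (1.74, SE 0.23, adjusted p = 3.00e-05), each compared with WT. Dmp1KO/Fgf23cKO compared with Dmp1KO gave 0.33 (SE 0.19, adjusted p = 0.138), and 0.69 (adjusted p = 0.015) without Dmp1KO replicate 3. The gene was sparse, with a UMI in 0.690 to 2.62% of myeloid cells at 2000 UMIs over the 11 cultures.

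Il6, the gene of the cytokine IL-6 (chr5:30013114-30019981, plus strand), was close to absent from these libraries: 15 UMIs in 11 of 12116 tagged myeloid cells and 25 UMIs in 11 of 883 tagged stromal cells. It did not pass the filter on low counts in either class and was not tested. The stromal UMIs came from 3 of 136 Fgf23cKO cells (9 UMIs) and 8 of 275 Dmp1KO/Fgf23cKO cells (16 UMIs). WT stromal cells held 0 Il6 UMIs in 281 cells, which allows up to 0.652 CPM and a UMI in up to 1.07% of cells, and Dmp1KO stromal cells held 0 in 191 cells, which allows up to 0.587 CPM and 1.57% of cells. These limits cover counting error only. Stromal depth also differed, with 4599610 UMIs in WT and 5112168 in Dmp1KO against 9666252 in Fgf23cKO and 15201594 in Dmp1KO/Fgf23cKO.

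Ptgs2, which encodes the inducible cyclooxygenase COX-2 (chr1:150100031-150108227, plus strand), was low in myeloid cells, at 1.80, 2.14 and 1.56 CPM in WT, 3.21, 5.52 and 1.63 CPM in Fgf23cKO, 2.79 and 3.07 CPM in Dmp1KO and 3.65, 3.82 and 5.07 CPM in Dmp1KO/Fgf23cKO. The Fgf23cKO cultures spread widely and overlapped the range of every other genotype. Ptgs2 rose in Dmp1KO/Fgf23cKO compared with WT (1.11, SE 0.34, adjusted p = 0.0147) and in Dmp1KO compared with WT (0.91, SE 0.35, adjusted p = 0.0339), the latter lost without Dmp1KO replicate 3 (0.85, adjusted p = 0.101) or WT replicate 3 (0.79, adjusted p = 0.122), and also without the osteoclast and cell cycle clusters (0.75, adjusted p = 0.109). In Fgf23cKO compared with WT the value was 0.86 (SE 0.37, adjusted p = 0.0733), and it fell to 0.36 without Fgf23cKO replicate 2. That call was also lost without Fgf23cKO replicate 1 and without each WT culture in turn (0.74 to 1.02).

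The 3 members that regulate NF-kB, Nfkbia, Nfkbiz and Tnfaip3, were each higher in Dmp1KO/Fgf23cKO than in WT and in Dmp1KO myeloid cells, while 13 further inhibitors and brakes gave 5 higher and 3 lower against WT, with a median log2 fold change of 0.12. Nfkbia encodes IkB alpha, the inhibitor that holds NF-kB in the cytoplasm (chr12:55489410-55492647, minus strand). It stood at 118, 106 and 116 CPM in WT, 232, 237 and 187 CPM in Fgf23cKO, 123 and 131 CPM in Dmp1KO and 331, 338 and 328 CPM in Dmp1KO/Fgf23cKO myeloid cells. The order of the genotypes was WT, Dmp1KO, Fgf23cKO and Dmp1KO/Fgf23cKO, with no overlap between cultures of neighbouring genotypes. Nfkbia rose by 1.52 (SE 0.07, adjusted p = 2.56e-09) on the log2 scale in Dmp1KO/Fgf23cKO, by 0.93 (SE 0.07, adjusted p = 5.08e-07) in Fgf23cKO and by 0.42 (SE 0.08, adjusted p = 0.000366) in Dmp1KO, each compared with WT. A UMI was found in 16.1 to 16.7% of WT and 40.5 to 42.9% of Dmp1KO/Fgf23cKO cells at 2000 UMIs.

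Nfkbiz, the gene of the nuclear cofactor IkB zeta (chr16:55811375-55838899, minus strand), stood at 142, 133 and 129 CPM in WT, 211, 214 and 151 CPM in Fgf23cKO, 90.7 and 118 CPM in Dmp1KO and 311, 297 and 307 CPM in Dmp1KO/Fgf23cKO. It was higher than in WT in Fgf23cKO (0.50, SE 0.11, adjusted p = 0.00254) and Dmp1KO/Fgf23cKO (1.15, SE 0.11, adjusted p = 1.48e-06). In CPM both Dmp1KO cultures lay below the WT cultures, but the fold change with TMM factors was not past the threshold (-0.12, SE 0.12, adjusted p = 0.420). Without Dmp1KO replicate 3 it was (-0.31, adjusted p = 0.077).

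Tnfaip3 encodes A20, a ubiquitin-editing enzyme that ends NF-kB signaling (chr10:19000910-19015657, minus strand). It stood at 38.5, 30.7 and 28.6 CPM in WT, 64.5, 74.3 and 56.0 CPM in Fgf23cKO, 65.8 and 61.5 CPM in Dmp1KO and 97.6, 92.3 and 90.0 CPM in Dmp1KO/Fgf23cKO. The Fgf23cKO and Dmp1KO cultures overlapped between the lower WT and the higher Dmp1KO/Fgf23cKO cultures. Tnfaip3 rose in Dmp1KO (1.24, SE 0.11, adjusted p = 2.40e-07), Fgf23cKO (1.00, SE 0.10, adjusted p = 6.22e-06) and Dmp1KO/Fgf23cKO (1.504, SE 0.10, adjusted p = 5.79e-08) compared with WT. Between Dmp1KO/Fgf23cKO and Dmp1KO the difference was 0.26 (SE 0.10, adjusted p = 0.0300), a call lost without Dmp1KO replicate 3 (0.26, adjusted p = 0.111) and without the osteoclast and cell cycle clusters (0.19, adjusted p = 0.129).

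Of the surface proteins, Cd83, a maturation marker of antigen-presenting cells (chr13:43784775-43803132, plus strand), stood at 58.1, 60.7 and 53.0 CPM in WT, 100.4, 90.2 and 78.7 CPM in Fgf23cKO, 67.2 and 77.8 CPM in Dmp1KO and 214, 228 and 201 CPM in Dmp1KO/Fgf23cKO. In CPM, each genotype lay apart from the next, although the Dmp1KO and Fgf23cKO ranges nearly touched. Cd83 rose by 1.87 (SE 0.08, adjusted p = 1.24e-09) on the log2 scale in Dmp1KO/Fgf23cKO, by 0.63 (SE 0.09, adjusted p = 5.09e-05) in Fgf23cKO and by 0.59 (SE 0.09, adjusted p = 5.28e-05) in Dmp1KO compared with WT. It was also higher in Dmp1KO/Fgf23cKO than in Dmp1KO (1.28, SE 0.09, adjusted p = 3.83e-08).

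Cd86, a ligand that costimulates T cells (chr16:36603869-36666081, minus strand), stood at 163, 131 and 119.5 CPM in WT, 236, 268 and 158 CPM in Fgf23cKO, 108 and 148 CPM in Dmp1KO and 395, 370.1 and 380.3 CPM in Dmp1KO/Fgf23cKO. WT and Dmp1KO overlapped and did not differ past the threshold (0.15, SE 0.18, adjusted p = 0.469). The mean CPM was lower in Dmp1KO (128) than in WT (138), while the fold change with TMM factors was positive. Cd86 was higher than in WT in Fgf23cKO (0.67, SE 0.16, adjusted p = 0.00409) and Dmp1KO/Fgf23cKO (1.44, SE 0.16, adjusted p = 5.61e-06). The share of cells with a UMI at 2000 UMIs was 20.8 to 26.6% in WT and 46.6 to 48.7% in Dmp1KO/Fgf23cKO.

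Il1rn went the other way. It encodes the IL-1 receptor antagonist (chr2:24336853-24351494, plus strand) and stood at 43.7, 27.99 and 34.7 CPM in WT, 15.2, 24.7 and 24.9 CPM in Fgf23cKO, 17.2 and 18.7 CPM in Dmp1KO and 13.8, 27.3 and 25.5 CPM in Dmp1KO/Fgf23cKO myeloid cells. The 3 WT cultures lay above all others, which overlapped among themselves. Il1rn fell by 0.70 on the log2 scale in Dmp1KO (SE 0.25, adjusted p = 0.0224) and in Fgf23cKO (SE 0.24, adjusted p = 0.0329), and by 0.71 in Dmp1KO/Fgf23cKO (SE 0.24, adjusted p = 0.0217). The Fgf23cKO call was lost without Fgf23cKO replicate 1 (-0.49, adjusted p = 0.130) or WT replicate 1 (-0.55, adjusted p = 0.117), and the Dmp1KO/Fgf23cKO value was -0.43 without Dmp1KO/Fgf23cKO replicate 1.

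At 2000 UMIs per cell, the share of myeloid cells with a UMI over the 11 cultures ranged from 18.3 to 42.5% for Nfkbiz, 5.38 to 16.4% for Tnfaip3, 10.4 to 34.1% for Cd83, 0.413 to 1.85% for Ptgs2 and 2.36 to 4% for Il1rn. For Cd83 the WT cultures lay at 10.4 to 12.6% and the Dmp1KO/Fgf23cKO cultures at 29.6 to 34.1%. These did not overlap. For Il1rn the shares were 3.36 to 3.42% in WT, 3.15 to 4% in Fgf23cKO, 2.49 to 2.59% in Dmp1KO and 2.36 to 3.83% in Dmp1KO/Fgf23cKO, so that Dmp1KO lay below WT while Fgf23cKO and Dmp1KO/Fgf23cKO overlapped with it.

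Whether the Dmp1 deletion went with the same difference in cultures with and without Dmp1-cre was tested as an interaction, the difference of Dmp1KO/Fgf23cKO against Fgf23cKO minus that of Dmp1KO against WT. It passed the threshold for 7 of 9 members in myeloid cells, 5 above and 2 below 0, on a background of 64.1% of all genes. Tnf had the largest value among the members (1.68, SE 0.16, adjusted p = 1.36e-06): both Dmp1KO cultures lay below the WT cultures, whereas the Dmp1KO/Fgf23cKO cultures (149 to 158 CPM) lay above the Fgf23cKO cultures (92.8 to 139.6 CPM). Nfkbiz (0.77, SE 0.16, adjusted p = 0.00111), Cd83 (0.65, SE 0.12, adjusted p = 0.000384) and Cd86 (0.62, SE 0.23, adjusted p = 0.0354) were also positive. Tnfaip3 (-0.73, SE 0.14, adjusted p = 0.000570) and Il1b (-0.89, SE 0.31, adjusted p = 0.0256) were negative. Il1rn lay at the threshold (0.69, SE 0.34, adjusted p = 0.0992) and was lost without any of 7 cultures (WT replicates 1 and 3, Fgf23cKO replicate 1, both Dmp1KO cultures and Dmp1KO/Fgf23cKO replicates 2 and 3, 0.49 to 0.77). The call for Cd86 was lost without Dmp1KO replicate 2 (0.46, adjusted p = 0.161) and that for Il1b without Dmp1KO replicate 3 (-0.56, adjusted p = 0.143).

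Several signals moved with these levels. The summed level of 15 dissociation stress genes such as Fos and Jun, which the preparation of cells is known to induce, was 2222 to 2526 CPM in WT, 2259 to 2565 CPM in Fgf23cKO, 1810 to 1837 CPM in Dmp1KO and 2647 to 2663 CPM in Dmp1KO/Fgf23cKO myeloid cells. The summed level of 36 stromal marker genes in the same myeloid cells was 238 to 254, 368 to 379.9, 144 to 153 and 532 to 547 CPM in that order. The median mitochondrial share of UMIs per myeloid cell was 2.64 to 2.65% in WT, 3.52 to 3.71% in Fgf23cKO, 2.98 to 2.99% in Dmp1KO and 3.70 to 3.91% in Dmp1KO/Fgf23cKO cultures, with Fgf23cKO and Dmp1KO/Fgf23cKO overlapping. T cell and NK cell markers summed to 248.8 to 287 CPM in Dmp1KO and 24.8 to 77.0 CPM elsewhere, but Il7r alone made up 248 to 286 CPM of the Dmp1KO sum, and Gzma and Klrb1c were at 0. The part of these signals in the results was not tested.

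The myeloid class was not made of the same clusters in each genotype. Cluster 1, led by Marco and Maf, held 63.0 to 72.3% of WT myeloid cells, and cluster 0, led by F13a1, Pstpip2, Egr3, Mrc1 and the member Cd86, held 71.9 to 75% of Dmp1KO/Fgf23cKO myeloid cells. Cluster 2, led by Itgax, Mfge8 and Mmp12, held 19.95 to 26.1% of Dmp1KO myeloid cells. The members differed sharply between them: Tnf stood at 13.5 and 14.7 CPM, Cd86 at 15.9995 and 14.7 CPM, Nfkbiz at 15.4 and 14.4 CPM and Il1b at 1.16 and 1.46 CPM in cluster 2 of the Dmp1KO cultures, against Tnf at 212 and 229 CPM, Cd86 at 605 and 588 CPM and Il1b at 39.6 and 27.4 CPM in cluster 0 of the same cultures. Tnfaip3 remained at 48.7 and 50.3 CPM in cluster 2. Il1b was highest among the Dmp1KO clusters in cluster 15, led by Cd74 and H2-Aa, at 53.7 and 53.9 CPM. In the osteoclast-marker cluster 17 (Mmp9, Acp5, Ctsk), which held at least 10 cells only in WT cultures, Nfkbia stood at 213 to 310.2 CPM while Tnf stood at 7.24 to 28.8 CPM and Cd86 at 9.65 to 18.5 CPM.

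A fit without the 6 clusters of which over 75% of tagged cells came from a single genotype, chosen after seeing the data, changed several values. Those clusters had held 68.5 to 75.6% of WT, 11.7 to 25.5% of Fgf23cKO, 54.1 to 61.7% of Dmp1KO and 8.27 to 10.8% of Dmp1KO/Fgf23cKO myeloid cells. The clusters that stayed were still not shared evenly. Cluster 0 stayed, with 1.45 to 1.55% of all WT, 38.5 to 62.6% of Fgf23cKO, 11.9 and 20.6% of Dmp1KO and 71.9 to 75% of Dmp1KO/Fgf23cKO myeloid cells. The part of this composition in the values that follow was not tested. The Tnf difference between Dmp1KO and WT went to -0.09 (adjusted p = 0.577), and Nfkbiz and Cd86 became higher in Dmp1KO than in WT (1.28 and 1.29). Il1rn stayed lower (-1.97) and Il1b stayed higher (2.89). Between Dmp1KO/Fgf23cKO and Dmp1KO the 6 called members were still higher, by 0.80 for Tnf, 0.72 for Nfkbia, 0.64 for Nfkbiz, 0.36 for Tnfaip3, 1.02 for Cd83 and 0.62 for Cd86, all smaller than in the whole class except Tnfaip3. Ptgs2 was lower in that comparison (-0.61, adjusted p = 0.061), and its calls against WT were lost in Fgf23cKO (0.07) and Dmp1KO/Fgf23cKO (0.34). Tnf in Fgf23cKO turned from lower to higher than WT (0.35, adjusted p = 0.017), and Tnf in Dmp1KO/Fgf23cKO became higher than WT (0.71, adjusted p = 3.97e-05). The interaction fell to 0.45 for Tnf and turned negative for Nfkbiz (-0.67), Cd83 (-0.38) and Cd86 (-0.54), with each past the threshold.

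Within the 6 myeloid clusters that had at least 10 cells in every tagged culture, fitted one by one, Dmp1KO against WT gave 5 higher and 2 lower of 9 members in cluster 0 (background 11.1% of genes), 1 and 1 of 7 in cluster 3 (16.6%), 5 and 1 of 8 in cluster 4 (22.3%), 5 and 2 of 8 in cluster 5 (33.7%), 1 and 1 of 8 in the cell cycle cluster 8 (41.1%) and 2 and 2 of 9 in the cell cycle cluster 11 (42.7%). Tnf was lower in Dmp1KO in clusters 0, 5, 8 and 11 (-0.65, -0.84, -1.20 and -1.40), while clusters 3 and 4 gave -1.59 and 0.31 without passing the threshold. Il1rn fell in clusters 0, 3, 4 and 5 (-1.58, -4.67, -2.81 and -2.70) and gave 0.14 and 0.56 in clusters 8 and 11, which did not pass. In cluster 3, led by the stress genes Ddit3 and Trib3, the Il1rn level was 1072, 457 and 548 CPM in WT and 16.5 and 35.1 CPM in Dmp1KO cultures. These WT sums held 10 to 13 cells each. In cluster 0 the WT sums held 14, 25 and 23 cells, against 313 and 508 cells in the Dmp1KO cultures.

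Dmp1KO/Fgf23cKO against Dmp1KO differed from cluster to cluster. In cluster 0, 1 member was higher (Cd83, 0.29) and 5 were lower of 9 (Il1b -0.98, Tnf -0.25, Ptgs2 -1.56, Nfkbiz -0.22 and Cd86 -0.36), on a background of 23.5% of genes. In the cell cycle clusters nearly every member was higher, 7 of 8 in cluster 8 (background 38%) and 8 of 9 in cluster 11 (36%). Nfkbia, for example, stood at 102 and 97.7 CPM in Dmp1KO and 208, 218 and 382 CPM in Dmp1KO/Fgf23cKO cultures in cluster 8, and at 114 and 78.0 CPM against 527, 300.1 and 392 CPM in cluster 11. Clusters 3, 4 and 5 had 3, 2 and 2 higher members and 0 lower of 7, 8 and 8 (backgrounds 13.4%, 5.16% and 10.5%), among them Il1rn in each (1.57, 1.99999 and 2.71). The Dmp1KO/Fgf23cKO sums held 40, 24 and 15 cells in cluster 8 and 23, 17 and 13 cells in cluster 11. The difference between clusters was not tested.

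**Figure D2:**
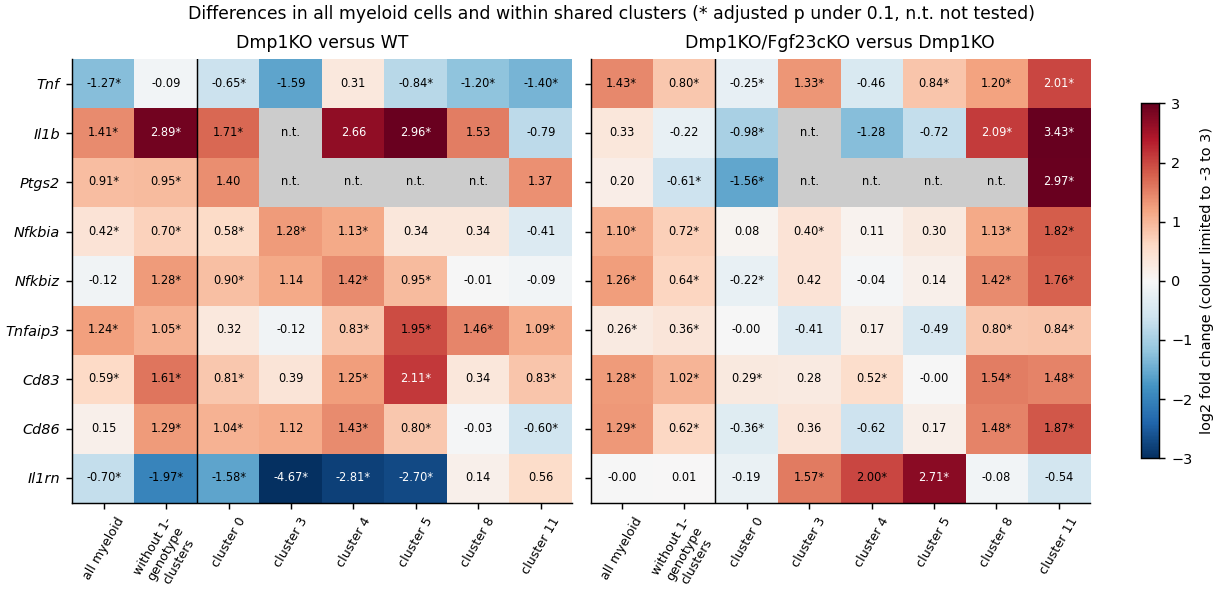
Log2 fold change (colour, limited to -3 to 3, with the value in each cell) of 9 members (rows) in Dmp1KO compared with WT and in Dmp1KO/Fgf23cKO compared with Dmp1KO, for all myeloid cells, without clusters mostly of 1 genotype, and within each shared cluster; asterisks mark an adjusted p under 0.1. The Tnf fall in Dmp1KO is -1.27 in the class and -0.09 without the clusters mostly of 1 genotype, and the higher Nfkbia in Dmp1KO/Fgf23cKO is 0.08 in cluster 0 and 1.82 in cluster 11.

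In stromal cells, Nfkbia was higher and Il1rn lower than in WT in each of the 3 other genotypes, and Tnf was lower in Dmp1KO, the same directions as in myeloid cells. Of these, Tnf stood above every myeloid marker found in stromal cells in only 7 of 11 cultures. The part of myeloid RNA in these stromal differences was not tested. Among the members, the largest difference from WT was in Il1rn. The classes were not tested against each other. Of 12426 genes tested in stromal cells, 8 were members. Cultures did not overlap in 46.7% of genes in Dmp1KO, 27% in Fgf23cKO and 32.7% in Dmp1KO/Fgf23cKO against WT (4, 4 and 2 members). In Dmp1KO/Fgf23cKO against Dmp1KO this was 44.9% (4 members). In Dmp1KO against WT 1 member was higher and 2 were lower (background 24.5%), in Fgf23cKO against WT 1 and 1 (15.4%), in Dmp1KO/Fgf23cKO against WT 1 and 1 (19.6%) and in the interaction 2 and 1 (18.4%). In Dmp1KO/Fgf23cKO against Dmp1KO edgeR called 0 of 8 members (background 10.6%), with 3 members at an unadjusted p under 0.05 (Tnf 0.0229, Ptgs2 0.0156 and Il1rn 0.0255), as had 2757 of the 12426 genes, and DESeq2 called 1. The member median log2 fold change was -0.31, 0.27, 0.02, 0.59 and 0.57 in Dmp1KO, Fgf23cKO and Dmp1KO/Fgf23cKO against WT, Dmp1KO/Fgf23cKO against Dmp1KO and the interaction, beside -0.04, -0.03, -0.00, 0.02 and 0.04 over all genes.

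Myeloid RNA was present in the stromal cells, so each member was set against it. In the 11 cultures, 12 myeloid marker genes summed in stromal cells to 0.0591 to 0.153 of their myeloid CPM (median 0.0847), and the highest single marker reached 0.176. Ptgs2 was above every marker in 11 of 11 cultures, at 16.2 to 49.2 times its myeloid level, as was Il1rn, at 0.884 to 13.8 times. Nfkbiz (0.173 to 0.640) and Nfkbia (0.174 to 0.492) were also above every marker of the same culture in 11 of 11. Tnf (0.0445 to 0.201) was above every marker in 7 of 11, Tnfaip3 (0.0657 to 0.286) and Cd86 (0.0287 to 0.204) in 5, Il1b (0 to 0.125) in 2 and Cd83 (0.0338 to 0.156) in 1. Each of these 5 genes was thus at or below a myeloid marker in at least 4 of the 11 cultures. At 2000 UMIs, the median share of stromal cells with a UMI over cultures was 7.46% for Ptgs2, 6.67% for Il1rn, 6.82% for Nfkbia and 8.25% for Nfkbiz, against 0.638%, 3.36%, 26.0% and 24.3% of myeloid cells. Without thinning these were 29.2%, 18.8%, 42.9% and 44.1% of stromal and 4.82%, 20.5%, 88.8% and 81.0% of myeloid cells. Median depth was 10013 to 71099 UMIs per stromal cell.

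**Figure D3:**
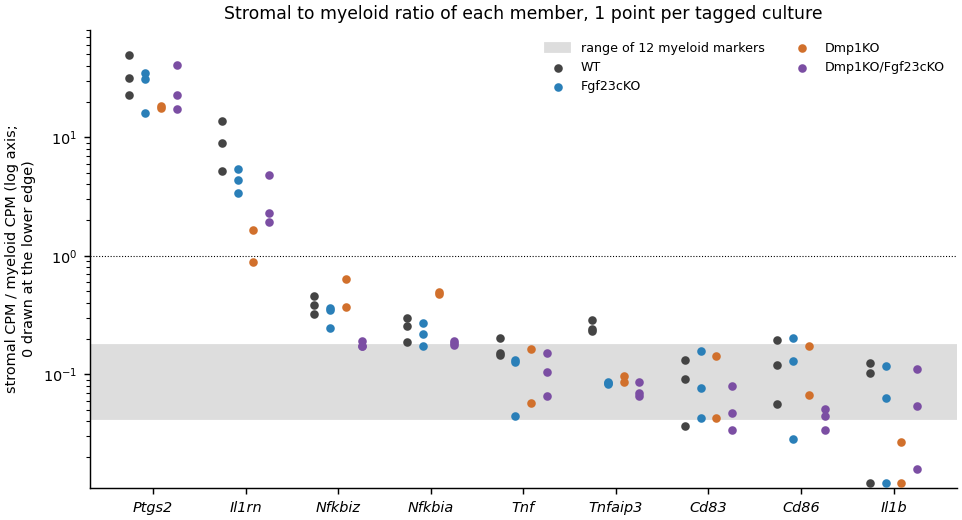
Ratio of the stromal to the myeloid CPM (y axis, logarithmic, with a ratio of 0 drawn at the lower edge) of 9 members (x axis), with 1 point per tagged culture coloured by genotype; the grey band is the range of 12 myeloid marker genes and the dotted line a ratio of 1. Ptgs2 lies above 1 in every culture, from 16.2 to 49.2, Il1rn in all but 1, and Cd83, Cd86 and Il1b lie mostly in or below the band.

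Il1rn in stromal cells stood at 603, 249.8 and 182 CPM in WT, 51.2, 134 and 108 CPM in Fgf23cKO, 15.2 and 30.6 CPM in Dmp1KO and 66.5, 53.1 and 59.0 CPM in Dmp1KO/Fgf23cKO. The WT cultures lay above all others and the Dmp1KO cultures below all others. It fell by 3.95 (SE 0.56, adjusted p = 0.00117) on the log2 scale in Dmp1KO, by 1.86 (SE 0.42, adjusted p = 0.0193) in Fgf23cKO and by 2.59 (SE 0.42, adjusted p = 0.00275) in Dmp1KO/Fgf23cKO compared with WT, and the Fgf23cKO value was -1.24 without WT replicate 1. The interaction was 3.22 (SE 0.68, adjusted p = 0.0128). Few cells carried these UMIs. The single cell with the most held 30.5, 25.6 and 23.2% of the Il1rn UMIs in WT, 74.5, 67.0 and 92.4% in Fgf23cKO, 18.8 and 23.9% in Dmp1KO and 77.6, 42.9 and 35.9% in Dmp1KO/Fgf23cKO cultures. Without that cell the levels were 429, 191 and 140.2 CPM in WT, 13.3, 46.3 and 8.78 CPM in Fgf23cKO, 12.7 and 23.5 CPM in Dmp1KO and 15.2, 30.7 and 38.9 CPM in Dmp1KO/Fgf23cKO. WT then still lay above all others, while the other genotypes overlapped.

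Ptgs2 in stromal cells stood at 41.1, 67.1 and 76.7 CPM in WT, 100.3, 89.3 and 56.8 CPM in Fgf23cKO, 49.5 and 56.8 CPM in Dmp1KO and 63.5, 156 and 116 CPM in Dmp1KO/Fgf23cKO. The ranges of WT, Fgf23cKO and Dmp1KO overlapped. The log2 fold change was 1.11 in Dmp1KO/Fgf23cKO against Dmp1KO (SE 0.39, adjusted p = 0.122) and 0.76 against WT (SE 0.35, adjusted p = 0.186). Without Dmp1KO/Fgf23cKO replicate 1, the lowest of its group, these were 1.39 (adjusted p = 0.045) and 1.07 (adjusted p = 0.051), and the first was 1.11 (adjusted p = 0.092) without Fgf23cKO replicate 3.

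The stromal clusters differed in these genes and in depth: cells of cluster 9 held a median of 2663 UMIs and 10380.1 CPM of myeloid marker genes, against 52774 UMIs and 3786 CPM in cluster 13 and 5821 UMIs and 6136 CPM in cluster 14. Ptgs2 was near 0 in cluster 9 (Grem1, Tagln), from 0 to 15.5 CPM over cultures. It stood at 15.7 to 49.6 CPM in WT, 69.6 to 127 CPM in Fgf23cKO, 42.9 and 60.7 CPM in Dmp1KO and 55.8 to 105 CPM in Dmp1KO/Fgf23cKO in cluster 13 (Pappa, Col3a1). In cluster 14, led by the osteoblast genes Ibsp and Bglap, it stood at 77.1 to 121 CPM in WT, 78.6 CPM in Fgf23cKO replicate 1, and 102 and 231 CPM in Dmp1KO/Fgf23cKO replicates 1 and 2. Il1rn was close to absent from cluster 14, at 0 to 5.24 CPM, and stood in cluster 13 at 1181, 478 and 473 CPM in WT, 83.6, 190.0 and 137 CPM in Fgf23cKO, 15.3 and 34.1 CPM in Dmp1KO and 98.1, 106 and 86.5 CPM in Dmp1KO/Fgf23cKO. Cluster 14 held 32.6 to 38.3% of WT stromal cells and 1.30 to 4.39% of Dmp1KO stromal cells, so these class sums differed in composition. Cluster 13 held 27.3 to 37.9% of WT and 42.9 and 37.7% of Dmp1KO stromal cells. The part of composition in the class differences was not tested. Less RNA per cell and fewer cells of a kind cannot be told apart in a sum.

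**Figure D4:**
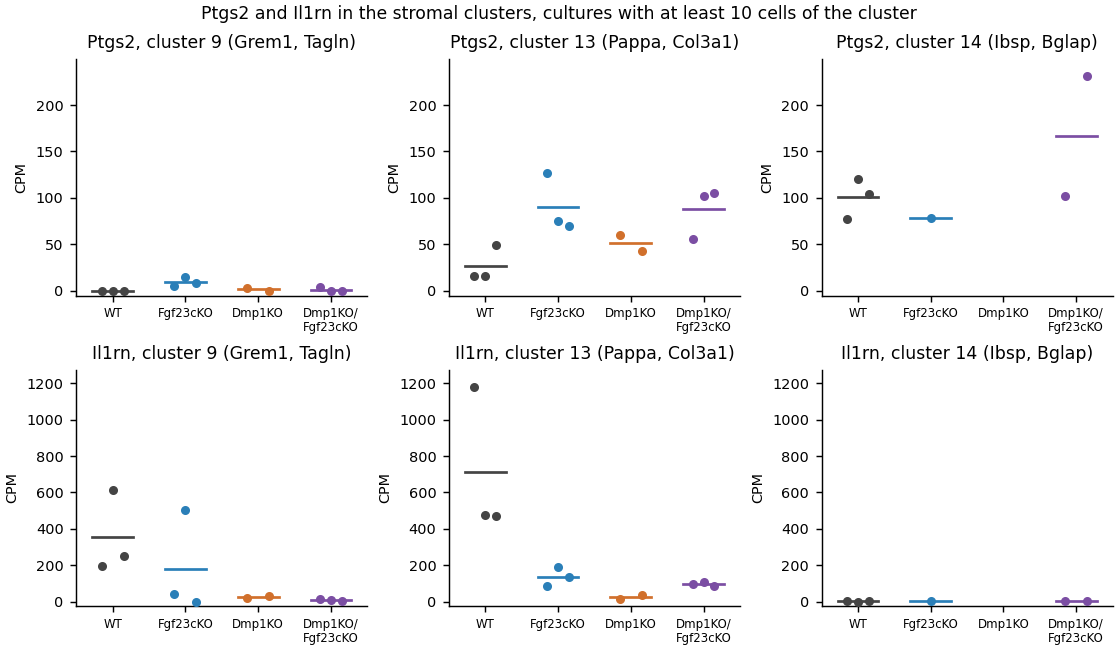
Ptgs2 (top row) and Il1rn (bottom row) in the 3 stromal clusters, as CPM (y axis, linear) by genotype (x axis), with 1 point per tagged culture that had at least 10 cells of the cluster and a line at the mean. Ptgs2 is near 0 in cluster 9 and present in clusters 13 and 14, and Il1rn of cluster 13 reaches 473 to 1181 CPM in WT and at most 190.0 CPM elsewhere.

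Nfkbia was the 1 member that rose in stromal cells of each genotype compared with WT. It stood at 35.5, 19.8 and 29.8 CPM in WT, 51.2, 41.3 and 50.7 CPM in Fgf23cKO, 60.4 and 62.8 CPM in Dmp1KO and 59.0, 62.6 and 62.4 CPM in Dmp1KO/Fgf23cKO. WT lay lowest and Dmp1KO and Dmp1KO/Fgf23cKO overlapped. At the summed myeloid marker ratio of each culture, myeloid RNA would give 11.5, 11.9 and 26.8 of the 50, 18 and 68 WT UMIs. The same was 106, 50.0 and 55.9 of 235, 129 and 99 in Fgf23cKO and 38.1 and 33.5 of 127 and 189 in Dmp1KO. In Dmp1KO/Fgf23cKO it was 143, 132 and 82.1 of 302, 413 and 218. Nfkbia was also higher than WT in the myeloid cells of these genotypes, and the part of myeloid RNA in the stromal differences was not tested. The log2 fold change against WT was 0.97 (SE 0.18, adjusted p = 0.00425) in Dmp1KO, 0.65 (SE 0.16, adjusted p = 0.0318) in Fgf23cKO and 0.99 (SE 0.16, adjusted p = 0.00251) in Dmp1KO/Fgf23cKO. Its interaction of -0.63 (SE 0.23, adjusted p = 0.0958) was lost without any of 9 cultures (all but WT replicate 1 and Fgf23cKO replicate 2, from -0.48 without WT replicate 2 to -0.71).

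Tnf in stromal cells stood at 20.6, 19.8 and 26.7 CPM in WT, 5.01, 17.6 and 12.3 CPM in Fgf23cKO, 2.38 and 8.64 CPM in Dmp1KO and 10.4, 16.5 and 22.6 CPM in Dmp1KO/Fgf23cKO. The Dmp1KO values rest on 5 and 26 UMIs. Tnf was lower in Dmp1KO than in WT (-2.07, SE 0.60, adjusted p = 0.0341), and the call was lost without Dmp1KO replicate 2 (-1.49, adjusted p = 0.206) or WT replicate 3 (-1.849, adjusted p = 0.113). Without Dmp1KO replicate 3 the value was -3.38. The interaction, 2.58 (SE 0.74, adjusted p = 0.0455), ran from 1.998 without Dmp1KO replicate 2 (adjusted p = 0.167) to 3.88 without Dmp1KO replicate 3 and missed the threshold without WT replicate 3 (2.35, adjusted p = 0.109). Nfkbiz, Tnfaip3, Cd83 and Cd86 passed the threshold in none of the 5 stromal comparisons. Under alternatives, Tnfaip3 passed at resolution 0.4 in Dmp1KO against WT (-1.27, adjusted p = 0.058) and in the interaction (1.49, adjusted p = 0.098), and Cd83 passed with the untagged samples in Dmp1KO/Fgf23cKO against WT (1.38, adjusted p = 0.064). Nfkbiz stood at 41.7 to 73.7 CPM over the 11 cultures.

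Within a culture, several pairs of members shared cells somewhat more often than the product of their shares gives. Co-expression was measured as Pearson r of log counts across the myeloid cells of a culture at 2000 UMIs and is given as a description, since cells of a culture share a library. Over the 11 cultures, 6 of the member pairs had a median r above 0.1. Tnf and Nfkbia had the highest (0.19, range 0.09 to 0.25), with 694 cells holding both against 481 from the product of their shares. Nfkbiz and Cd86 followed (0.15, 0.05 to 0.34, 1244 cells against 873), then Cd83 and Cd86 (0.14, 0.06 to 0.31, 857 cells against 592). For Nfkbiz and Cd86 r was 0.33 to 0.34 in both Dmp1KO cultures, 0.10 to 0.15 in WT, 0.05 to 0.18 in Fgf23cKO and 0.08 to 0.18 in Dmp1KO/Fgf23cKO cultures. Within the largest cluster of each culture 2 pairs were above 0.1, Tnf with Nfkbia (0.14) and Nfkbiz with Cd86 (0.10). Il1rn had no such value with Nfkbia, at -0.02 (-0.06 to 0.06).

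**Figure D5:**
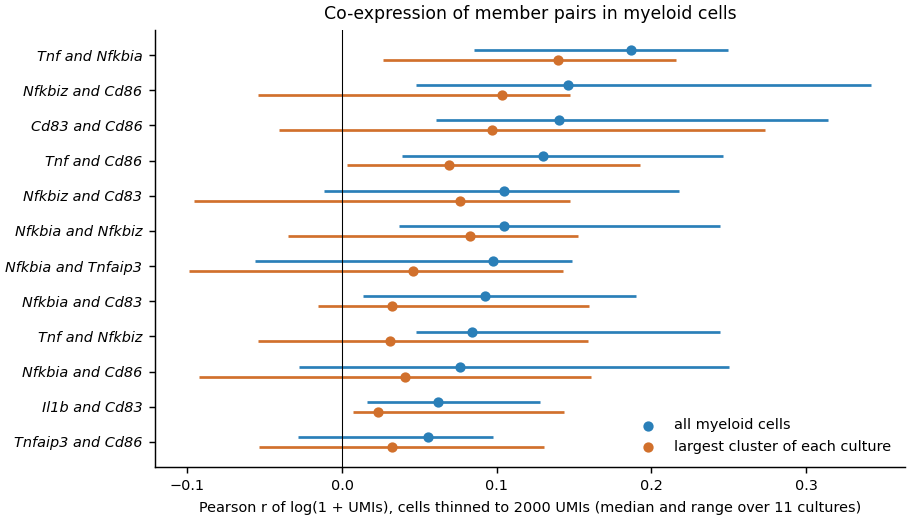
Pearson r (x axis) of log(1 + UMIs) for the 12 member pairs with the highest median in myeloid cells thinned to 2000 UMIs, Il6 left out; points are medians and lines ranges over 11 cultures, in all myeloid cells and in the largest cluster of each culture. The median for Tnf and Nfkbia is 0.19 in all cells and 0.14 in the largest cluster.

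Among 5438 genes compared over the 11 cultures, those most like Tnf across myeloid cells were Ier3 (mean r 0.23), the chemokine genes Ccl2 (0.22) and Ccl7 (0.20), the protease gene Ctsc (0.20) and Plek (0.18). Those most like Nfkbia were the chemokine gene Cxcl2 (0.23), Tnip3 (0.14), Pde4b (0.14), Junb (0.13) and Zc3h12c (0.13). For the sparse Il1b all values were low, led by Btg2 (0.08).

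Genes of the wider pathway were called in myeloid cells in both directions, on the background of 69.8% of all genes in Dmp1KO against WT and 67.5% in Dmp1KO/Fgf23cKO against Dmp1KO. The counts per list are descriptions and nothing was drawn from a share near that background. The genes named from each list were those with the smallest p in Dmp1KO against WT. Both comparisons use the same Dmp1KO cultures, so this selection favours a value of opposite sign in the second comparison. Nothing was drawn from such opposite signs. Of 5 NF-kB subunit genes, 1 was higher and 1 lower in Dmp1KO than in WT, and 5 were higher in Dmp1KO/Fgf23cKO than in Dmp1KO. Rel, the c-Rel subunit, changed by -0.27 and 0.63 in these comparisons, and Rela, the p65 subunit, by 0.12 and 0.21. Of 13 further inhibitors and brakes, 4 were higher and 6 lower in Dmp1KO, with Nfkbid at -1.16 and the A20-binding gene Tnip1 at 0.70, and in Dmp1KO/Fgf23cKO against Dmp1KO 6 were higher and 4 lower (Nfkbid 1.53 and Tnip1 -0.57). Of 20 IkB kinase and adaptor genes, 2 were higher and 12 lower in Dmp1KO (Ikbkg, which encodes NEMO, -0.67), and 14 were higher and 2 lower in Dmp1KO/Fgf23cKO than in Dmp1KO.

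Of 13 receptor genes, 11 were tested, with 3 higher and 6 lower in Dmp1KO, and the lipopolysaccharide coreceptor gene Cd14 changed by 1.87 and the endosomal receptor gene Tlr7 by -1.07. In Dmp1KO/Fgf23cKO against Dmp1KO, 6 were higher and 3 lower (Cd14 -1.06 and Tlr7 1.02). Of 13 further cytokine and inflammasome genes, 9 were tested, with 3 higher and 5 lower in Dmp1KO and 6 higher and 2 lower in the second comparison. Il1a, the gene of IL-1 alpha, changed by -2.50 and 2.12, and its direction in Dmp1KO against WT was opposite to that of Il1b. The inflammasome genes Pycard (1.25 and -1.02) and Casp1 (0.69 and -0.58) went the other way from Il1a. For all genes named here, the selection and the shared Dmp1KO cultures favour opposite signs in the paired values, as stated above. Of 11 prostaglandin genes, 4 were higher and 6 lower in Dmp1KO, and Hpgd, which encodes the enzyme that breaks down prostaglandins, changed by -1.75 and 1.46. Of 8 costimulatory and adhesion genes, 3 were higher and 4 lower in Dmp1KO, with Cd80, the other ligand of the Cd86 family, at -1.49 and 1.64, Icam1 at -1.30 and 1.36, and Cd274, which encodes PD-L1, at 1.12 and -1.39. Of 13 other inflammatory targets, 12 were tested, with 7 higher and 4 lower in Dmp1KO. Tnfaip2 changed by -1.34 and 0.58, and Bcl2a1b (1.14 and -0.88) and Bcl2a1d (2.18 and -1.95) are near-identical copies whose reads may be split uncertainly. Of 15 dissociation stress genes, 14 were tested, with 3 higher and 7 lower in Dmp1KO and 10 higher and 2 lower in Dmp1KO/Fgf23cKO against Dmp1KO.

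In stromal cells the same lists stood on a background of 24.5% of all genes in Dmp1KO against WT and 19.6% in Dmp1KO/Fgf23cKO against WT. Of 5 NF-kB subunit genes, 0 passed in Dmp1KO against WT and 1 was higher in Dmp1KO/Fgf23cKO against WT. Of 11 receptor genes tested, 2 were higher and 3 lower in Dmp1KO than in WT, and of 11 prostaglandin genes, 1 was higher and 1 lower. Of the 15 dissociation stress genes, 1 was higher and 3 were lower.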

How the data were processed

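Droplet single-cell RNA-Seq with culture tags was measured in the samples described above. The authors made the deposited values with Cell Ranger 7.0.1 (per the file headers) and, per the submitters' processing notes, the mm10 build. The authors deposited raw UMI counts for each cell barcode, made with Cell Ranger and not normalized, over 32285 genes and 12 tags. Tags were kept out of the totals. The authors removed multiplets between cultures by tag. No doublet caller was run here, so multiplets within a culture remain.

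Cells were clustered with Seurat 5.3.0 and sctransform 0.4.2 in R 4.3.3 (3000 variable genes, of which the 8 members among them were left out, 30 principal components, resolution 0.8), with no filter on cells. Clusters were called myeloid or stromal when the summed CPM of one marker list was over 10 times (myeloid) or 2 times (stromal) that of the other. Clusters with a median of at least 20% mitochondrial UMIs, shallow clusters without a marker of the class among their leading genes and clusters led by another list were left out. UMI counts were summed per tagged culture over at least 10 cells of a class and fitted for all genotypes together with edgeR 4.0.16 (TMM factors, filterByExpr, quasi-likelihood test, Benjamini-Hochberg over all genes tested, threshold 0.1). Totals were 7782600 to 70203575 UMIs per myeloid and 908563 to 6595103 UMIs per stromal sum. Cells were thinned to 2000 UMIs for shares and co-expression, leaving out 0 to 42 myeloid and 3 to 26 stromal cells per tagged culture. Promoter windows were searched in Python 3.11.15 with pandas 2.3.3 and numpy 2.4.6. Gene positions are those of a GRCm38 annotation.

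Named genes were all members, up to 3 genes per pathway list with the smallest p in Dmp1KO against WT in myeloid cells, and the 5 genes most like Il1b, Tnf and Nfkbia. Members and lists were chosen with earlier results of these data known. Alternatives were DESeq2 1.42.0, RLE size factors, the omission of the filter on low counts, an adjusted p under 0.05, the replicate number as a block, the untagged samples, a filter on cells (at least 500 genes and under 20% mitochondrial UMIs), the members kept in the clustering, resolutions 0.4 and 1.2, the omission of osteoclast and cell cycle clusters, 5000 UMIs and each culture left out in turn. The omission of clusters mostly of 1 genotype and the fits within clusters were chosen after seeing the data. The test was tested on simulated data with the same dispersion for all genes and 100 genes changed at each size. It recovered 84 to 91 of the 2-fold changes in myeloid and 50 to 62 in stromal sums. Of the 4-fold changes it recovered 98 to 100 and 90 to 95. False calls reached 19 in a myeloid and 22 in a stromal draw. Far fewer genes changed in the simulation than were called in the data (69.8% in myeloid Dmp1KO against WT). It therefore does not show how the test behaves when most genes differ.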

Additional observations from a re-analysis of the deposited data

Results flagged for a closer look

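The members that follow passed the threshold for the interaction term of the edgeR fit, which compares the Dmp1-/- difference with and without Dmp1-cre. In myeloid cells the log2 values were -0.89 for Il1b, 1.68 for Tnf, 0.77 for Nfkbiz, -0.73 for Tnfaip3, 0.65 for Cd83, 0.62 for Cd86 and 0.69 for Il1rn. In stromal cells they were 2.58 for Tnf, -0.63 for Nfkbia and 3.22 for Il1rn. On the same scale 64.1% of all genes in myeloid cells and 18.4% in stromal cells passed the threshold. The myeloid Il1rn call was lost without any of 7 cultures and the stromal Nfkbia call without any of 9. The calls for Il1b and Cd86 in myeloid cells and Tnf in stromal cells were also lost without single cultures. Without clusters mostly of 1 genotype, the myeloid values of Nfkbiz, Cd83 and Cd86 turned negative, so their sign depended on the clusters included.

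In 51 groups of 4 samples, the untagged sample included, 2 samples stood apart from the rest of their group by Dixon's criterion, which chance alone meets in about 1 of 20 groups. WT replicate 1 had Il1rn at 603 CPM in stromal cells, against 182 to 249.8 CPM in the other samples of its group. The untagged Dmp1KO/Fgf23cKO sample had Il1rn at 217 CPM in stromal cells, against 53.1 to 66.5 CPM.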

How the results depend on the processing

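Of 45 member values in myeloid and 40 in stromal cells, 44 and 40 kept their direction and their side of the threshold with RLE factors, 45 and 40 at resolution 1.2, and 45 and 39 with the members kept in the clustering. Fewer did so without the filter on low counts (41 and 34), with the untagged samples (44 and 32) and, in myeloid cells, without osteoclast and cell cycle clusters (41) and without clusters mostly of 1 genotype (31). Without the filter on low counts, 4 myeloid and 5 stromal calls were gained and 1 stromal call was lost. Without osteoclast and cell cycle clusters 2 calls were lost, without clusters mostly of 1 genotype 3 were lost and 2 gained, and with the untagged samples 1 myeloid call was lost and 2 stromal calls were gained. The count of stromal members called in Dmp1KO/Fgf23cKO against Dmp1KO, 0, became 3 without a filter on low counts, 1 with DESeq2, 1 with the untagged samples and 0 to 1 when a culture was left out, and the stromal interaction count ranged from 1 to 3 then. The count of pairs with a median r above 0.1 was 13 at 5000 UMIs and 2 in the largest cluster. Without clusters mostly of 1 genotype the direction turned for Nfkbiz in Dmp1KO against WT (1.28), Tnf in Fgf23cKO against WT (0.35), Il1b (-0.22), Ptgs2 (-0.61) and Il1rn (0.0086) in Dmp1KO/Fgf23cKO against Dmp1KO, and Nfkbia (-0.0918), Nfkbiz (-0.67), Cd83 (-0.38) and Cd86 (-0.54) in the interaction. The myeloid Il1rn value of -0.00 in Dmp1KO/Fgf23cKO against Dmp1KO became 0.0219 (RLE), 0.0446 (DESeq2) and 0.0858 (without osteoclast and cell cycle clusters, where the Nfkbia interaction became -0.0173). In stromal cells the direction turned with the untagged samples for Tnfaip3 in Dmp1KO against WT (0.48), Nfkbia (-0.0778) and Tnfaip3 (-0.51) in Dmp1KO/Fgf23cKO against Dmp1KO and Nfkbiz (0.0580), Tnfaip3 (-0.29) and Cd86 (0.0383) in the interaction, at resolution 0.4 for Nfkbia in Dmp1KO/Fgf23cKO against Dmp1KO (-0.00749) and the Cd86 interaction (0.44), and with DESeq2 for Cd86 in Dmp1KO/Fgf23cKO against WT (-0.0359). The cause was not tested.

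When a culture was left out, directions turned in myeloid cells for Nfkbiz (-0.31 to 0.0423) and Cd86 (-0.0848 to 0.34) in Dmp1KO against WT and Il1rn in Dmp1KO/Fgf23cKO against Dmp1KO (-0.20 to 0.28). In stromal cells they turned for Nfkbiz in Dmp1KO (-0.30 to 0.0554), Fgf23cKO (-0.00998 to 0.30) and Dmp1KO/Fgf23cKO (-0.11 to 0.12) against WT, in Dmp1KO/Fgf23cKO against Dmp1KO (-0.0307 to 0.33) and in the interaction (-0.23 to 0.16), for Cd83 in Dmp1KO against WT (-0.70 to 0.76) and the interaction (-0.23 to 1.23), for Cd86 in Dmp1KO against WT (-0.72 to 0.13), Dmp1KO/Fgf23cKO against WT (-0.28 to 0.35), Dmp1KO/Fgf23cKO against Dmp1KO (-0.10 to 0.75) and the interaction (-0.65 to 0.21), and for Nfkbia in Dmp1KO/Fgf23cKO against Dmp1KO (-0.0383 to 0.0736). None of these values was past the threshold with all cultures.

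The replicate numbers did not pair the cultures: deviations of same-numbered cultures correlated at -0.155 to 0.101 in myeloid and -0.140 to 0.159 in stromal cells. With the replicate number as a block, 44 of 45 myeloid and 36 of 40 stromal values kept direction and call. The stromal count in Dmp1KO/Fgf23cKO against Dmp1KO became 1 under the block, and 3 values turned direction: Il1rn in myeloid cells (0.11) and Nfkbia in stromal cells (-0.0057), both in Dmp1KO/Fgf23cKO against Dmp1KO, and Cd86 in stromal cells in Dmp1KO/Fgf23cKO against WT (-0.0125). Stromal sums of 41 to 122 cells limit the precision of stromal values, and 1 droplet reaction per genotype limits every comparison.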
